A study of Mus musculus with 6 samples.

Results

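*Wdfy1*, *Klk1b22*, *Sycp1* and *Gm17167* are 4 genes not known as interferon-induced whose counts separated the *Adar1* E861A brains from their *Adar1* wild-type controls, and they were examined as possible differences of strain background. The rows were found by gene symbol among the 37310 genes of the count table, and all 4 were present. The genes were chosen by these same measured values, so the genotype difference of each is given as a description and carries no test. Measurements that the choice did not use are tested or described here, namely the genes around each locus, the families and pathways of each gene, and the sequence of each locus.

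Whole-brain RNA of 12-week-old male mice was sequenced, with 3 mice per genotype. The *Adar1* E861A mice were *Adar1* E861A/E861A *Ifih1*-/-, so that both copies of ADAR1 carried an amino acid change that leaves the protein unable to edit RNA. The controls were *Adar1*+/+ *Ifih1*-/-. *Ifih1*, the gene of MDA5, a sensor of double-stranded RNA, was thus deleted in both groups. Both engineered alleles (*Adar* tm1.1Xen and *Ifih1* tm1.1Cln) were on a backcrossed C57BL/6 background, and the number of backcross generations and whether the groups were littermates were not given in the sources used here.

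A mutation made in embryonic stem cells of 1 mouse strain and then crossed onto another carries flanking DNA of the first strain with it, and such passenger segments shrink only slowly with further crosses. Colonies of 1 inbred strain kept apart also drift, and several C57BL/6 substrains are known to differ at single genes and in gene copy number. A gene that lies in such a region can differ in expression between a mutant and its controls whatever the engineered mutation does. RNA counts alone do not show which strain a segment came from.

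*Wdfy1* (ENSMUSG00000073643) encodes a protein of early endosomes with WD40 repeats and a FYVE domain, which binds the lipid phosphatidylinositol 3-phosphate, and is known as an adaptor in Toll-like receptor signalling. *Klk1b22* (ENSMUSG00000060177) encodes a glandular kallikrein, a serine protease of the salivary gland known to act on growth factor precursors. *Sycp1* (ENSMUSG00000027855) encodes the transverse filament of the synaptonemal complex, the protein ladder that holds homologous chromosomes together in meiotic germ cells. *Gm17167* (ENSMUSG00000091542) is annotated as a processed transcript, a spliced RNA without an assigned protein.

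The 4 loci lie on 4 chromosomes of the NCBIM37 (mm9) build. *Wdfy1* is at chr1:79698837-79772718 on the minus strand, *Klk1b22* at chr7:51368043-51372292 on the plus strand, *Sycp1* at chr3:102622422-102740023 on the minus strand and *Gm17167* at chr4:42077721-42106036 on the plus strand. *Sycp1* shares chromosome 3 with *Adar* (chr3:89518944-89557368), the gene that was mutated. None of the 4 shares a chromosome with *Ifih1* (chr2:62433850-62484312).

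The sequence of each locus decides how surely a read of 75 bases can be assigned to it. Every window of 75 bases within an annotated exon was therefore searched for exact copies on both strands of the whole NCBIM37 genome. Exons shorter than 75 bases and reads across exon junctions were not covered. Windows were searched singly, although the reads were paired. For *Klk1b22*, 482 of 485 windows (99.4%) occurred once in the genome, and for *Sycp1* 1118 of 1139 (98.2%). For *Wdfy1* the share was 74.6% (3790 of 5080 windows) and no window had more than 3 copies. For *Gm17167* it was 22.5% (1106 of 4906 windows), with a median of 8 copies and a maximum of 69.

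The repeated windows of *Wdfy1* lay mostly inside the gene itself. Exonic stretches of 113, 314 and 443 bases each occurred in 2 copies in the gene, letter for letter and at the same spacing of 7442 bases. The first pair, a whole exon of 113 bases, lies at chr1:79713778-79713890 and again at chr1:79721220-79721332, and is shown because the reference genome holds it in 2 identical copies (minus strand, read 5′ to 3′).
*Wdfy1* duplicated exon: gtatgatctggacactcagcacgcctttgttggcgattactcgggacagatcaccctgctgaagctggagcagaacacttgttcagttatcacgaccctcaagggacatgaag
Outside the gene, 10 matches were found in the genome, 7 on chromosome 15 and 3 on chromosome 10. A read pair wholly inside these exons has more than 1 best position, and STAR's gene counts leave such pairs out.

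*Klk1b22* has 13 close relatives, *Klk1* and the other *Klk1b* genes. Its coding sequence of 780 bases was closest to that of *Klk1b21*, with 693 of 780 aligned bases identical (88.8%), and least like that of *Klk1* (84.7%). The 75 bases of coding sequence with the most differences from *Klk1b21* are shown, with the 22 bases that differ in capitals, because they show that a single read can separate these genes.
*Klk1b22*, coding bases 475 to 549: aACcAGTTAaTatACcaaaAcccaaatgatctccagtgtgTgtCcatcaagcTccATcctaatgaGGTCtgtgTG
*Klk1b21*, coding bases 481 to 555: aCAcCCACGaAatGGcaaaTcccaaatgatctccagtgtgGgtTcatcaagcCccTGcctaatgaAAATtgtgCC

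For *Gm17167*, the first window that occurred once and the first of those that occurred most often are shown, because both count as the same transcript and yet differ in how surely a read comes from it (NCBIM37, plus strand). The first lies at chr4:42101230-42101304 and the second, found 69 times, at chr4:42102747-42102821.
*Gm17167* window found once: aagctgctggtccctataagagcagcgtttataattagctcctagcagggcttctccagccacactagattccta
*Gm17167* window found 69 times: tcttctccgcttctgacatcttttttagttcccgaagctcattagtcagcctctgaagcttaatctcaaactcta
Of the matches outside the annotated transcript, 55.6% were on chromosome 4 and 20.3% on a contig not placed on a chromosome. Most reads of such windows would not be counted, and counts of *Gm17167* are uncertain as counts of this locus alone.

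RefSeq promoter sequences (GRCm38.p6) were given for *Sycp1* and *Klk1b22*, and the 250 bases before the start are shown for both because these genes were both lower in the *Adar1* E861A brains. Capitals mark the core of the interferon-stimulated response element, which is GAAA and GAAA with 2 bases of any kind between them, searched on both strands.
*Sycp1*, chr3:102936101-102936350, minus strand: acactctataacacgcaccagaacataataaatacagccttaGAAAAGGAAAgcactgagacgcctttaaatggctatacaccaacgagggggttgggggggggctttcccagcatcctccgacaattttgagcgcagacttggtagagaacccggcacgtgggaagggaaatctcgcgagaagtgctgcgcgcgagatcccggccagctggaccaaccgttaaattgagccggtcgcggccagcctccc
*Klk1b22*, chr7:44112423-44112672, plus strand: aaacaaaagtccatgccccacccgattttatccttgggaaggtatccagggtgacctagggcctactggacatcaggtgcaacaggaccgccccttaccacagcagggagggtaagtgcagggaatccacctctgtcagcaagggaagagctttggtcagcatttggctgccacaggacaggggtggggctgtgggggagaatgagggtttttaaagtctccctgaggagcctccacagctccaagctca
The *Sycp1* window held 1 match to this element, as did 2.98% of all 32851 promoter windows of this length. It had 17 CpG pairs at a GC content of 55.2%, against medians of 6 pairs and 52.4% over all windows. The *Klk1b22* window had 2 CpG pairs at a GC content of 56.0% and no match to it. Neither window matched the STAT site TTCNNNGAA (7.02% of all windows), TATAAA (12.4%) or CCAAT (33.8%), and the matched motif overlapped none of these.

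The libraries held between 26853488 and 38076753 counts, and CPM (counts scaled to a common library size) are given after TMM scaling, which moved no library by more than its factor of 0.986 to 1.02. All-gene tests used edgeR's quasi-likelihood test on the 13649 genes that reached 2 CPM in all 3 libraries of 1 genotype or the other. *Adar*, whose point mutation need not change its level, had 161 ± 7.38 CPM in the mutant and 151 ± 31.6 CPM in the control (SD, n = 3), with an adjusted p of 0.822 from edgeR. *Ifih1* had 38 to 56 counts in every library, from an engineered allele that both genotypes carried. Neuron, astrocyte and oligodendrocyte markers were abundant in all 6 libraries. In 1 library, *Adar1* E861A replicate 1, pituitary hormone genes summed to 12696 counts (431 CPM) against 53 to 132 counts in the others, so values without that library are given where they bear on a result. Fewer cells of a type and less RNA per cell cannot be told apart in bulk brain RNA.

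*Wdfy1* was lower in *Adar1* E861A brain in every library. Its CPM was 22.4, 20.5 and 24.9 in the *Adar1* E861A libraries (661, 736 and 661 counts) and 40.3, 37.2 and 39.9 in the wild-type libraries (1478, 1396 and 1428 counts). The highest mutant library was below the lowest control library. The means of 22.6 ± 2.18 and 39.1 ± 1.7 CPM (SD, n = 3) put wild type 1.73-fold above the mutant, a fitted log2 fold change (E861A over wild type) of −0.80 ± 0.07 (SE). The ratio of wild type to mutant was 1.80, 1.81 and 1.60 in the pairs of libraries with the same replicate number. The labels do not say what a number marks, so these pairs are not known to be matched mice. The coefficient of variation between replicates was 9.63% in the mutant and 4.33% in the control, where counting error alone gives 3.82% and 2.64%.

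*Klk1b22* had no count in any *Adar1* E861A library. The wild-type libraries had 43, 139 and 93 counts, or 1.17, 3.70 and 2.60 CPM. The controls thus differed 3.07-fold among themselves, with a coefficient of variation of 50.9% where counting error alone gives 10.4%, yet each was far above 0. With 3 counts in each mutant library as the limit that a count of 0 allows (a mean of 0.0994 CPM from column totals), *Klk1b22* was at least 25.0-fold lower in the mutant than the wild-type mean of 2.48 ± 1.24 CPM (SD, n = 3). This limit covers counting error only. *Klk1b22* did not pass the expression filter, since replicate 1 of the controls was below 2 CPM.

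*Sycp1* was also lower in *Adar1* E861A brain. Its CPM was 3.19, 3.99 and 4.44 in the mutant (94, 143 and 118 counts) and 8.35, 7.70 and 8.99 in the control (306, 289 and 322 counts). The groups did not overlap, and all 6 libraries had counts of this meiotic gene. The means were 3.87 ± 0.631 and 8.35 ± 0.647 CPM (SD, n = 3), 2.16-fold higher in wild type, with a fitted log2 fold change of −1.11 ± 0.12 (SE). Wild type exceeded the mutant 2.62-, 1.93- and 2.03-fold in the numbered pairs.

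*Gm17167* was higher in *Adar1* E861A brain, the direction opposite to that of the other 3 genes. Its CPM was 24.0, 19.3 and 24.3 in the mutant (708, 691 and 645 counts) and 11.0, 9.94 and 10.4 in the control (402, 373 and 373 counts). The lowest mutant library lay well above the highest control library. The means were 22.5 ± 2.82 and 10.4 ± 0.516 CPM (SD, n = 3), 2.16-fold higher in the mutant, with a fitted log2 fold change of 1.10 ± 0.09 (SE). The mutant exceeded wild type 2.19-, 1.94- and 2.33-fold in the numbered pairs.

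**Figure D1:**
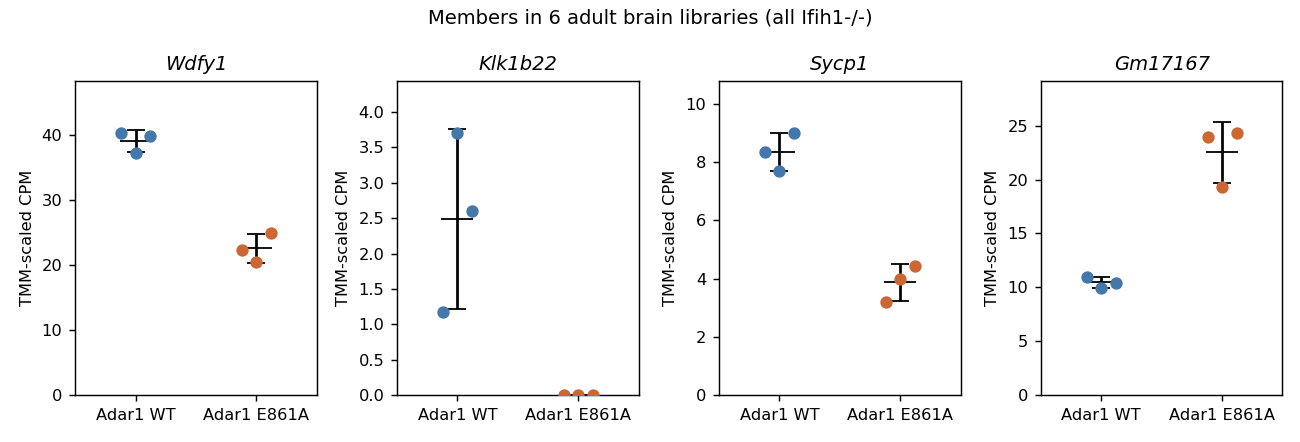
TMM-scaled CPM (vertical axes, each starting at 0) of the 4 genes in the 3 *Adar1* wild-type and the 3 *Adar1* E861A brain libraries, all *Ifih1*-/-, with 1 point per library and the mean ± SD as bars. *Wdfy1* and *Sycp1* sat lower in all 3 mutant libraries, *Klk1b22* was at 0 in all 3, and *Gm17167* was higher in all 3.

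The groups did not overlap for any of the 4 genes, which is what they were chosen for. Among all tested genes, 14.2% showed no overlap between genotypes in CPM, and 69 of 13649 (0.506%) had an edgeR adjusted p under 0.05, 56 higher and 13 lower in the mutant. When libraries of the same replicate number were paired in the model, the calls rose to 158, of which 103 were higher. Per kilobase of annotated exon, the wild-type level was 6.20 CPM for *Wdfy1*, 2.91 for *Klk1b22*, 2.41 for *Sycp1* and 2.07 for *Gm17167*, while the mutant levels were 3.58 for *Wdfy1*, 0 for *Klk1b22*, 1.12 for *Sycp1* and 4.46 for *Gm17167*. These levels divide by the whole exon length, of which a read can be placed uniquely over a far smaller share in *Gm17167* than in the other 3 genes, so the place of *Gm17167* in the order is not resolved. In control brain the libraries of *Klk1b22* ran from 1.37 to 4.33 CPM per kilobase and so spanned those of *Sycp1*, while *Wdfy1* lay above both.

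The genes around each locus were compared to see whether any of them differed in RNA level too. Only 0.506% of all tested genes were called by edgeR, so 0 calls among few genes would be usual. Genes on a shared segment need not change in RNA level, so the extent of any segment was not tested. Within 1 Mb of *Wdfy1*, 7 other genes were tested and edgeR called 0 of them. At an unadjusted edgeR p under 0.05 there were 0, where the share over all tested genes was 9.01%. DESeq2 and limma-voom called 0 of the genes within 1 Mb of *Wdfy1*, *Klk1b22* or *Sycp1*. The 7 genes around *Wdfy1* had log2 fold changes from −0.12 for *Acsl3*, an acyl-CoA ligase, to 0.08 for *Ap1s3*, a subunit of a clathrin adaptor. The nearest tested genes were *Serpine2*, a secreted protease inhibitor, at 18.1 kb (0.07 ± 0.06, edgeR adjusted p = 0.775) and *Ap1s3* at 30.3 kb (0.08 ± 0.14, edgeR adjusted p = 0.894). *Mrpl44*, a mitochondrial ribosomal protein gene, overlaps the start of *Wdfy1* on the opposite strand, and its level was 9.90 ± 0.84 CPM in the mutant and 10.8 ± 0.42 CPM in the control (−0.12 ± 0.09, edgeR adjusted p = 0.714).

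Within 1 Mb of *Sycp1*, 18 genes were tested and edgeR called 0, against 0.506% of all tested genes. At an unadjusted edgeR p under 0.05 there was 1 (*Nras*, 5.56%), against 9.01%. Log2 fold changes of the 18 genes lay between −0.21 for *Dclre1b*, a nuclease of telomere ends, and 0.34 for *Ptpn22*, a phosphatase of lymphocytes. *Tspan2*, a tetraspanin of oligodendrocytes at 46.2 kb, and *Sike1*, a suppressor of the kinase IKKε at 59.6 kb, had log2 fold changes of 0.09 ± 0.06 and 0.03 ± 0.06 (edgeR adjusted p = 0.67 and 0.922). Neither moved by an amount near the 1.11 by which the log2 level of *Sycp1* fell.

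Around *Klk1b22*, 41 genes within 1 Mb were tested and edgeR called 0, against 0.506% of all tested genes. At an unadjusted edgeR p under 0.05 there were 3 (7.32%), against 9.01%. The 41 genes ran from −0.27 for *Klk6*, a kallikrein made by oligodendrocytes, to 0.31 for *Pold1*, a DNA polymerase subunit. The nearest tested genes were *2410002F23Rik* at 130 kb (−0.11 ± 0.07, edgeR adjusted p = 0.641) and *Klk6* at 281 kb (−0.27 ± 0.17, edgeR adjusted p = 0.657). When same-numbered libraries were paired in the model (the replicate block), edgeR called 1 of these 41 genes, which was lower in the mutant.

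*Gm17167* was the exception. Of the 30 tested genes within 1 Mb of it, edgeR called 2 (6.67%, against 0.506% of all tested genes), and both were higher in the mutant. Both are pseudogenes of the same repeated region. *Gm13301*, which overlaps *Gm17167* on the same strand, had 411, 375 and 335 counts in the mutant and 237, 206 and 200 in the control, a 2.11-fold difference (log2 fold change 1.07 ± 0.12, edgeR adjusted p = 0.000218). *Gm5859*, 1.55 kb beyond its end, had 106, 98 and 80 counts in the mutant and 58, 40 and 51 in the control, a 2.29-fold difference (log2 fold change 1.19 ± 0.18, edgeR adjusted p = 0.00354). The other genes ran from −0.21 for *Pigo* to 0.29 for *Kif24*, and *Ccl27a*, a chemokine gene and the nearest tested one on the other side at 357 kb, was at 0.02 ± 0.07 (edgeR adjusted p = 0.96).

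**Figure D2:**
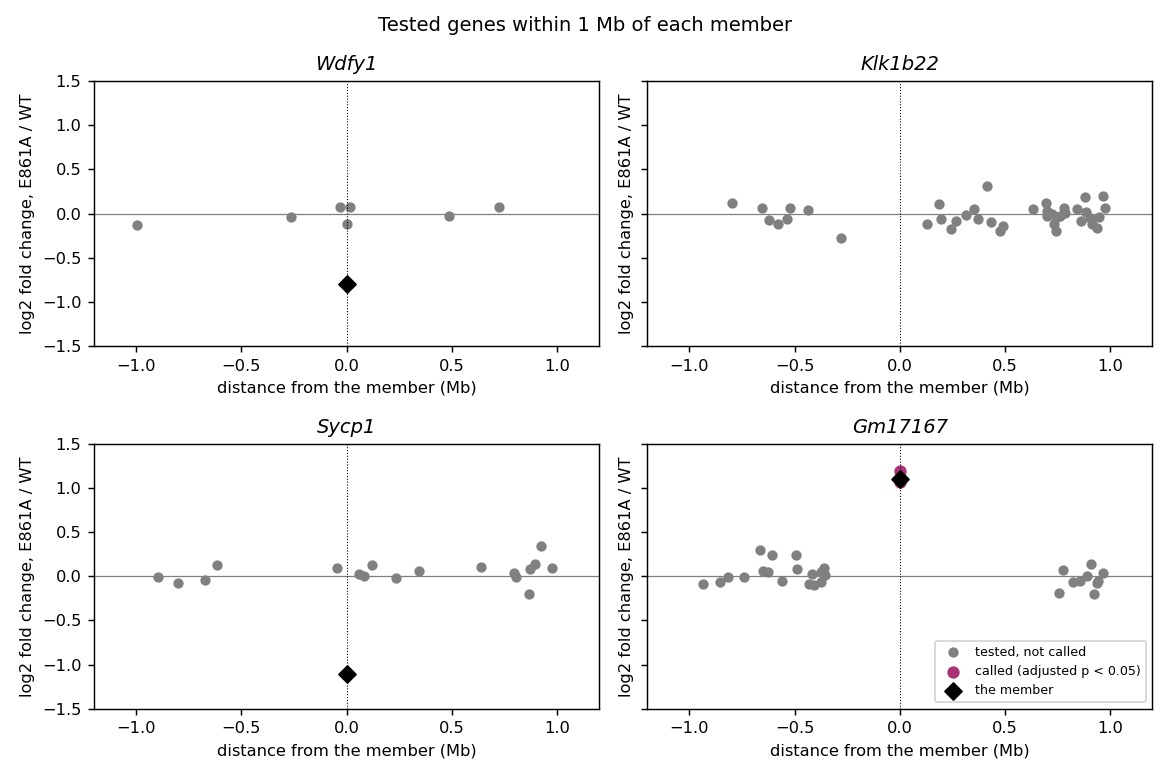
Log2 fold change between genotypes (vertical axis) of every tested gene within 1 Mb of each gene, by its distance from it in Mb (horizontal axis). Grey points were not called, purple points had an edgeR adjusted p under 0.05 and black diamonds are *Wdfy1*, *Sycp1* and *Gm17167* themselves. *Klk1b22* has no diamond since it did not pass the expression filter. The 2 purple points lie at *Gm17167*.

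Widening the window to 5 Mb added 2 called genes. *Utp14b*, a retrogene for a ribosome assembly factor 1.03 Mb from *Wdfy1*, was higher in the mutant at 0.38 ± 0.08 (edgeR adjusted p = 0.0419), 1 of 47 tested genes. *Ddx58*, which encodes the interferon-induced RNA sensor RIG-I and lies 1.89 Mb from *Gm17167*, was higher at 0.71 ± 0.10 (edgeR adjusted p = 0.00307), bringing that window to 3 of 85. The windows around *Klk1b22* and *Sycp1* had 0 of 98 and 0 of 70 genes called by edgeR, with 14 (14.3%) and 3 (4.29%) at an unadjusted p under 0.05, where the share over all tested genes was 9.01%, and 0 called by DESeq2 or limma-voom in either. With the replicate block the window around *Klk1b22* had 2 calls, and that around *Gm17167* had 4, with *Zcchc7* added.

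*Gm17167* lies in a stretch of chromosome 4 filled with copies of a few genes. Between *Ccl27a* and *Gm12429*, across 1140 kb, 23 loci had a count, a set chosen after the counts had been seen. Together they held 3712 counts in the mutant and 2099 in the control, 54.9% of them on *Gm17167*. Of the 9 loci with 20 or more counts in all, 7 did not overlap between genotypes in CPM, and all 7 were higher in the mutant. The share was 14.2% among all tested genes, but of the 9 loci only *Gm17167*, *Gm13301* and *Gm5859* passed that expression filter. The 7 include *Gm17167*, chosen for this separation, and *Gm17081*, whose 8, 6 and 9 counts in the mutant and 5, 6 and 4 in the control separate after scaling only.

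The smaller loci of the stretch had few counts. *Gm10595*, annotated on the opposite strand inside *Gm17167*, had 27, 25 and 27 counts in the mutant and 13, 12 and 16 in the control, and with the looser filterByExpr filter its edgeR adjusted p was 0.0859. *Gm13300*, which overlaps the end of *Gm17167*, had 8, 9 and 11 counts against 3, 4 and 4. *Gm10599* had 23, 11 and 9 counts against 2, 6 and 7 (edgeR adjusted p = 0.215 with filterByExpr). *4930578G10Rik*, at the far end of the stretch, had 7, 8 and 5 counts in the mutant and 6, 7 and 12 in the control, and overlapped between genotypes.

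These loci share sequence, so their counts are not separate measurements. Of exon windows of 75 bases, 13.4% occurred once in the genome for *Gm13301*, 12.4% for *Gm13300*, 6.67% for *Gm5859*, 6.44% for *Gm17081* and 0% for *Gm10599*. STAR's gene counts take reads that align to a single best place and leave out those that overlap several genes, so reads of identical stretches were mostly not counted, and the counts rest on the parts in which the copies differ. Which copy differed was not tested.

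**Figure D3:**
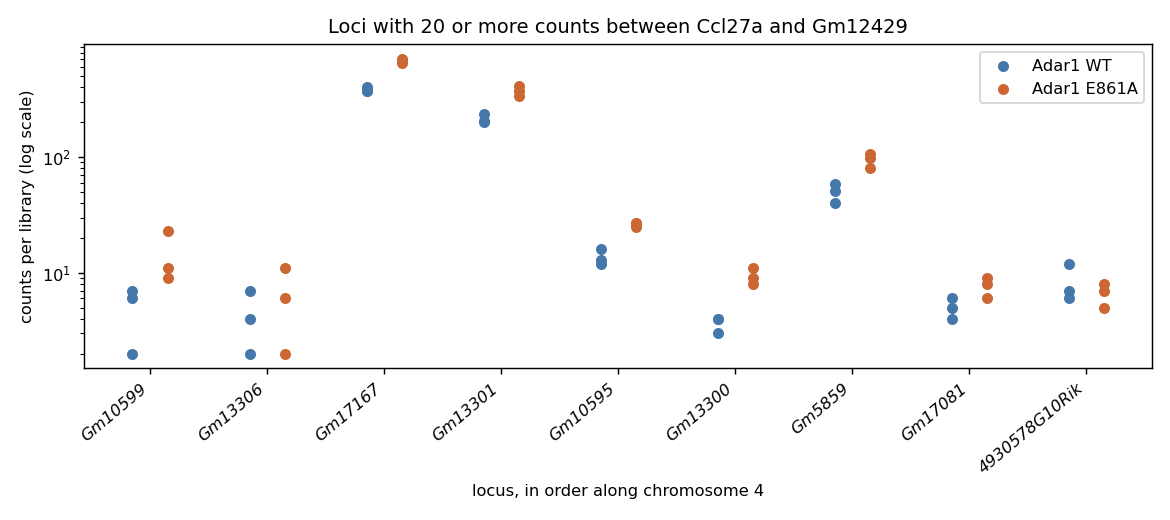
Counts per library (vertical axis, log scale) of the 9 loci with 20 or more counts between *Ccl27a* and *Gm12429*, in their order along chromosome 4, with 1 point per library. In *Gm17167*, *Gm13301*, *Gm5859*, *Gm10595*, *Gm13300* and *Gm10599* the 3 *Adar1* E861A libraries lie above the 3 wild-type libraries, while *Gm13306* and *4930578G10Rik* overlap. In *Gm17081* the lowest mutant and the highest control library meet at 6 counts.

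*Sycp1* lies 13.1 Mb from the mutated gene *Adar*. Between them 366 genes were annotated and 133 tested. Whether a segment was carried along with the *Adar* mutation was not tested, since genes in it need not change in RNA level. edgeR called 0 of the 133 genes, against 0.506% of all tested genes, and DESeq2, limma-voom and the fit with the replicate block also called 0. At an unadjusted p under 0.05 there were 8 (6.02%), where the share over all tested genes was 9.01%. The log2 fold changes lay between −0.52 for *She* and 0.47 for *Fcgr1*, with a median of −0.0192 against −0.001 for all genes. Of the 677 tested genes on chromosome 3, edgeR called 5, and apart from *Sycp1* these were *Slc7a11*, a cystine transporter 52.4 Mb away, and the interferon-induced guanylate-binding protein genes *Gbp2*, *Gbp3* and *Gbp7*, 39.5 Mb away, all higher in the mutant.

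**Figure D4:**
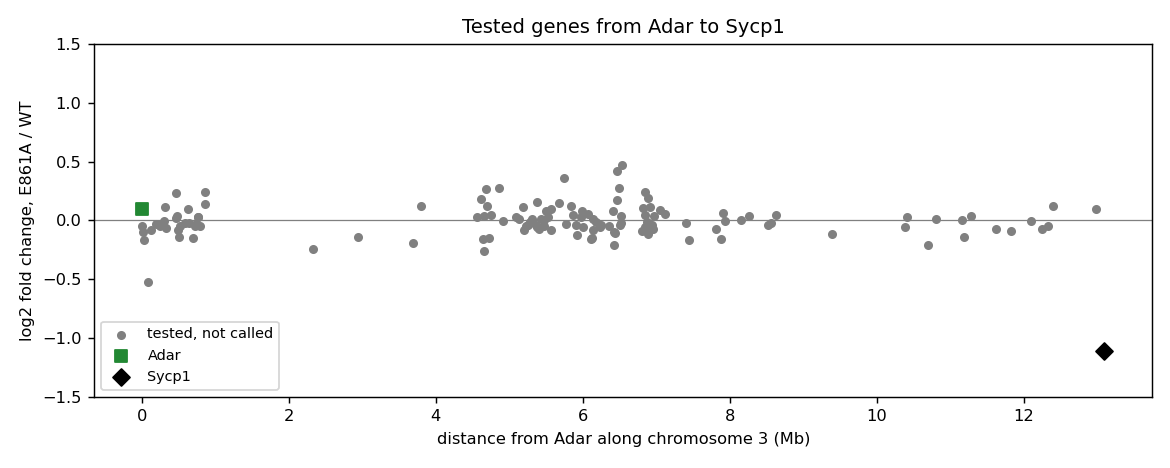
Log2 fold change between genotypes (vertical axis) of the 133 tested genes from *Adar* to *Sycp1* by distance from *Adar* in Mb (horizontal axis), with *Adar* as a green square and *Sycp1* as a black diamond. The genes between them lie from −0.52 to 0.47, and *Sycp1* stands at −1.11, 13.1 Mb from *Adar*.

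The kallikrein family was examined to see whether other members differed with *Klk1b22*. The 13 other *Klk1* and *Klk1b* genes together had 17 counts in the mutant libraries and 20 in the wild-type libraries, and 4 of them had none. No library held more than 3 counts of any of them. The 43 to 139 counts of the control libraries were thus found at *Klk1b22* and not at its nearest relatives, whose exon windows occurred once in the genome in 73.0% to 100% of cases.

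Of the 12 kallikrein genes from *Klk4* to *Klk15*, 9 had counts. *Klk6* was at 4.76 ± 0.404 CPM in the mutant and 5.75 ± 1.56 CPM in the control, and it alone passed the filter. *Klk8*, a protease of hippocampal neurons, had 17, 14 and 14 counts against 17, 37 and 23, and *Klk9* 7, 16 and 8 against 16, 20 and 11. *Klk12* had 2, 4 and 5 counts in the mutant and 11 in each control library, with an edgeR adjusted p of 0.39 under filterByExpr. *Klk5*, *Klk14* and *Klk15* had no counts.

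**Figure D5:**
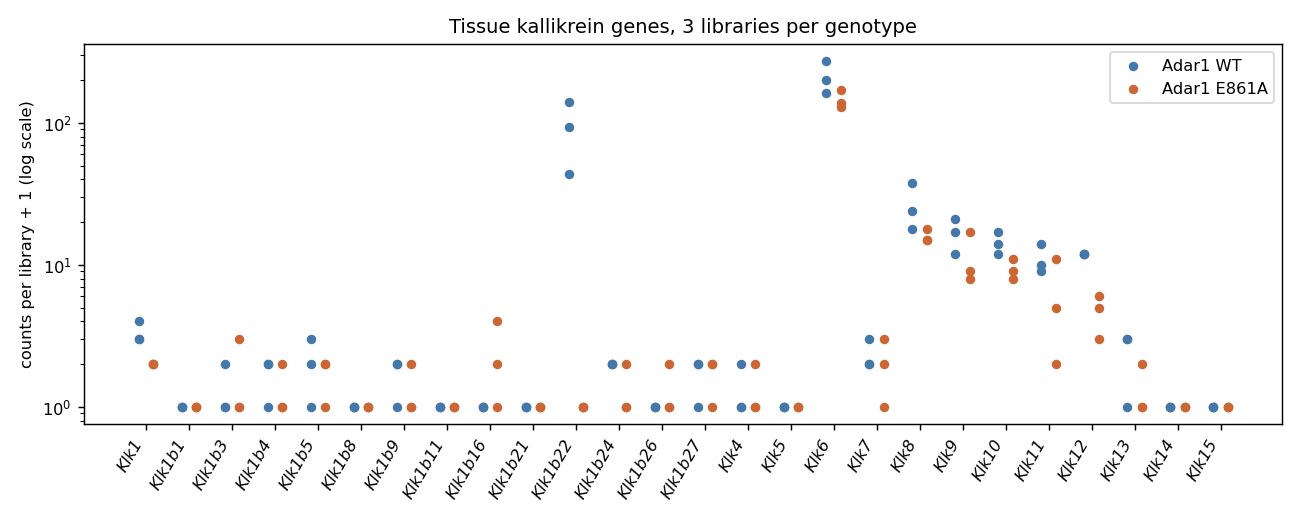
Counts per library plus 1 (vertical axis, log scale) of the 26 tissue kallikrein genes, with 3 libraries per genotype as points. *Klk1b22* has 43 to 139 counts in wild type and 0 in the mutant, its 13 *Klk1* and *Klk1b* relatives have at most 3 in a library, and *Klk6* is expressed in both genotypes.

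KLK1B22 is known to act on nerve growth factor and epidermal growth factor, and 2 of the 5 genes listed for these factors and their receptors passed the filter. *Egfr*, the epidermal growth factor receptor, was at 29.6 ± 0.989 CPM in the mutant and 30.9 ± 2.81 in the control. *Ngfr*, the p75 neurotrophin receptor, was at 2.51 ± 0.0901 and 3.03 ± 0.216 CPM (log2 fold change −0.27 ± 0.13, edgeR adjusted p = 0.573). edgeR called 0 of the 2, with 0 at an unadjusted p under 0.05. DESeq2 and limma-voom also called 0 of these, 0 of the meiotic, endosomal and Toll-like receptor genes and 0 of the substrain genes described next.

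The partners of SYCP1 in the synaptonemal complex and in meiotic recombination were also examined. All 28 had counts, 7 were tested and edgeR called 0 (lowest adjusted p 0.271), against 0.506% of all tested genes. At an unadjusted edgeR p under 0.05 there were 2 (28.6%), against 9.01%. The 7 log2 fold changes lay between 0.01 for *Hfm1*, a meiotic helicase, and 0.44 for *Rec8*, a meiotic cohesin, with a median of 0.157. None of the 7 was lower in the mutant as *Sycp1* was. Partners below the expression filter went both ways, with *Sycp2l* at −0.46 ± 0.40 and *Msh4* at 0.37 ± 0.30 under filterByExpr. *Sycp2*, part of the lateral element that SYCP1 attaches to, was at 25.4 ± 2.47 CPM in the mutant and 22.7 ± 1.94 in the control. *Mlh3*, a mismatch repair gene of crossovers, was at 35.5 and 32.6 CPM, and *4930447C04Rik*, listed with the complex, at 21.9 ± 3.51 and 17.4 ± 0.644 CPM (log2 fold change 0.33 ± 0.09). Without *Adar1* E861A replicate 1, *4930447C04Rik* was called at 0.44 ± 0.07 (edgeR adjusted p = 0.0147).

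Markers of the germ cells in which SYCP1 acts differed from each other in level within these libraries. Of 7 germ cell markers, *Stra8*, the gene of meiotic entry, was at 0, and the spermatid genes *Tnp1*, *Prm1*, *Prm2* and *Acrv1* had between 0 and 30 counts. *Ddx4* and *Dazl* had 76 to 136 counts per library, where *Sycp1* itself had 94 to 322. The 7 markers summed to 5.91 to 7.19 CPM in the mutant and 6.11 to 6.79 CPM in the control, ranges that overlapped. Of 7 salivary gland markers, *Amy1* was expressed at 357 to 493 counts, the other 6 had at most 3 counts in a library, and *Bpifa2*, *Dcpp1* and *Smr2* had none.

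Among the WDFY and FYVE-domain proteins and the early endosome regulators they act with, 24 genes were tested and edgeR called 0, with 3 at an unadjusted p under 0.05. The log2 fold changes ran from −0.27 for *Plekhf1* to 0.36 for *Wdfy4*, with a median of 0.00776. *Wdfy3*, a large autophagy adaptor and the most abundant relative, was at 429 ± 12.0 and 430 ± 7.34 CPM, *Zfyve9* at 197 and 193 CPM and the endosome tether *Eea1* at 107 CPM in both genotypes. In Toll-like receptor 3 and 4 signalling, 17 of 21 genes were tested and edgeR called 0, with 2 at an unadjusted p under 0.05 and log2 fold changes from −0.18 for *Ticam1*, which encodes the adaptor TRIF, to 0.30 for the kinase gene *Ikbke*. *Tab2*, *Map3k7* and *Traf3*, the most abundant of them, were at 76.6, 68.0 and 66.4 CPM in the mutant and 77.0, 66.3 and 59.4 CPM in the control. Without *Adar1* E861A replicate 2, *Chuk*, a kinase subunit of the NF-κB pathway, was called at 0.25 ± 0.06 (edgeR adjusted p = 0.0488).

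Genes known to differ between C57BL/6 substrains were set beside these 4. Of 8 listed, 6 were tested and edgeR called 0, against 0.506% of all tested genes. At an unadjusted p under 0.05 there was 1 (*Dock2*, 16.7%), against 9.01%. Log2 fold changes ran from −0.09 for *Nnt* to 0.34 for *Dock2*, with a median of −0.011. *Nnt*, the mitochondrial transhydrogenase gene that carries a deletion in C57BL/6J, was at 23.4 ± 4.17 CPM in the mutant and 24.8 ± 3.68 in the control (edgeR adjusted p = 0.85). *Cyfip2* was at 740 ± 47.6 and 765 ± 1.15 CPM and *Gabra2*, a GABA-A receptor subunit, at 48.5 and 49.9 CPM. Several of these genes differ between substrains in sequence rather than in level, which counts do not show.

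Marker genes of other cell types were compared because the 4 genes could also move with the makeup of the tissue. Endothelial markers summed to 56.6 to 75.7 CPM in the mutant and 80.5 to 92.3 CPM in the control. Choroid plexus markers summed to 202 to 316 and 376 to 389 CPM. Both sums were lower in the mutant, as *Wdfy1*, *Klk1b22* and *Sycp1* were. Most of the choroid plexus sum was *Ttr*, at 248 CPM in the mutant and 354 CPM in the control. Of its other markers, *Folr1* and *Kl* were lower in the mutant and *Aqp1* was higher (2.97 against 2.79 CPM). edgeR called 0 of these 7 markers, with 5 (71.4%) at an unadjusted p under 0.05, against 9.01% of all tested genes. DESeq2 called 1 (*Flt1*) and the fit with the replicate block 1 (*Ttr*). Their part in the results was not tested. Microglial sums were 100 to 113 and 111 to 116 CPM, and those of neurons, astrocytes and oligodendrocytes overlapped or met between genotypes. Without the library with pituitary hormones, and without each other library in turn, the log2 fold change stayed between −0.87 and −0.73 for *Wdfy1*, between −1.21 and −0.99 for *Sycp1* and between 1.05 and 1.21 for *Gm17167*.

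The pattern over the 6 libraries was compared with that of every tested gene by Pearson's r of log2(CPM + 0.5), a description in which all points share the genotype split. Between the 4 genes, r was 0.968 for *Wdfy1* and *Sycp1*, 0.909 for *Klk1b22* with either, and −0.916, −0.948 and −0.954 for *Gm17167* with *Wdfy1*, *Sycp1* and *Klk1b22*. Most like *Wdfy1* were *4930429F24Rik* (r = 0.995), *Gm10557* (0.984) and *Trim43b* (0.98), which were lower in the mutant by fitted log2 fold changes of −1.24, −0.48 and −5.67. Most like *Sycp1* was *Mns1*, a gene of sperm flagella and motile cilia (r = 0.992, log2 fold change −0.84 ± 0.14), followed by *Agmo* and *Tmem60* (both 0.99). *4930429F24Rik*, *Trim43b* and *Mns1* all lie on chromosome 9, where none of the 4 genes is.

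Most like *Gm17167* was its neighbor *Gm13301* (r = 0.994), then *Cog5*, a Golgi transport gene (0.992), and *Grm7*, a glutamate receptor gene (0.99), whose log2 fold changes were 0.18 ± 0.05 and 0.12 ± 0.04. Most like *Klk1b22* were *Mtmr7* (0.991), *Usp42* (0.99) and *Nucb1* (0.99), with log2 fold changes of −0.03, −0.06 and −0.19. A high r thus went with differences of very different size.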

How the data were processed

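Ribosome-depleted, stranded paired-end RNA libraries came from 3 mice per genotype. Per the labels and the study's methods, the authors trimmed reads with Trimmomatic 0.36, aligned them to NCBIM37 with STAR 2.5.2a and deposited raw gene counts, replicates not pooled. The strand column counted was not stated, so overlapping genes are uncertain. Library totals set the depth, which limits *Klk1b22*. The deposited CPM and edgeR tables were not used.

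Here edgeR 4.0.16 (R 4.3.3) tested the counts of 13649 genes, and was tested on simulated data. Calls had a Benjamini-Hochberg adjusted p under 0.05. Coordinates came from GENCODE vM1, sequences from NCBIM37 and RefSeq. Alternatives were other filters and scalings, DESeq2 1.42.0, limma-voom 3.58.1, a replicate block and leaving out libraries. Deviations of same-numbered libraries correlated at 0.227, 0.338 and 0.117, and those of differently numbered libraries were not compared. Numbers paired libraries in the replicate block and in the ratios given, not in the main tests. The labels do not say what a number marks. The genes and lists were chosen with earlier results of these data known. Genes were named by a rule: the 4, the targeted genes, the nearest, overlapping and called neighbors, the most abundant list members and the 3 most correlated genes. Others given, including the smaller chromosome 4 loci, the range ends and *Klk12*, were chosen after their values were seen. Some genes that these rules would name are not reported here.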

Additional observations from a re-analysis of the deposited data

How the results depend on the processing

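Over the alternatives run, log2 fold changes ran from −0.87 to −0.73 for *Wdfy1*, −1.21 to −0.99 for *Sycp1* and 1.05 to 1.21 for *Gm17167*. The direction of all 4 genes could not reverse when a library was left out, since they were chosen for not overlapping between genotypes. The fitted value of *Klk1b22*, with libraries at 0, is no bound and depends on the fit, at −9.40 by edgeR with filterByExpr, −8.70 by DESeq2, −7.11 by limma-voom, −5.43 with a prior count of 2 and −9.71 to −8.96 with a library left out.

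The 69 calls over all genes (81.2% higher in the mutant) became 42 when all 6 libraries had to reach 2 CPM, 110 with filterByExpr, 376 without a filter (58.0% higher) and 158 with the replicate block (65.2% higher), which kept all 69. Leaving out a library gave 42 to 113 calls, with 42 without E861A replicate 3, 113 without E861A replicate 2 (68.1% higher) and 108 without WT replicate 2.

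The 2 calls within 1 Mb of the 4 genes became 1 when all 6 libraries had to reach 2 CPM, 5 without a filter, 4 in the window of 5 Mb and 3 with the replicate block, and stayed at 2 to 2 with a library left out. The stricter filter removes *Gm5859*, whose level in the control is 1.36 CPM. From *Adar* to *Sycp1* the 0 calls became 4 without a filter (*She*, *S100a8*, *S100a9* and *Hist2h2be*) and 1 without WT replicate 2 (*Hist2h2be*), a range of 0 to 1 over the libraries left out. In the gene lists the 0 calls became 2 without a filter (*Rec8* and *4930447C04Rik*), 1 without E861A replicate 1 and 1 without E861A replicate 2, a range of 0 to 1. The cause was not tested. Beyond the calls given with it above, the replicate block changed no call of the comparisons reported.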
